A study of Homo sapiens with 6 samples.

Results

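The enzymes of pyrimidine synthesis and salvage were followed in HepG2 cells, a human line derived from a hepatocellular carcinoma, after knockdown of DGUOK. The 10 genes are CAD, DHODH, UMPS, CTPS1, CTPS2, TYMS, DCTD, UCK1, UCK2 and CDA. They were chosen by name as enzymes that build, convert or recycle pyrimidine nucleotides, and each matched 1 row of the gene table. They are 10 of the 34036 genes listed, of which 24670 had at least 1 count and 14476 had enough counts to be tested, all 10 among them.

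DGUOK encodes deoxyguanosine kinase, the mitochondrial enzyme that phosphorylates purine deoxyribonucleosides. The study compared RNA from cells given a siRNA pool against DGUOK (siDGUOK) with RNA from cells given non-targeting siRNA (siControl). Both were delivered with Lipofectamine RNAiMAX and both were harvested after 48 h, with 3 libraries per group. Groups were taken from the sample titles, because the treatment label names siControl for all 6 samples. The series describes the replicates as independent biological replicates of this 1 cell line. Total counts were 19065684, 18915508 and 10527216 in siControl replicates 1, 2 and 3, and 18613138, 15978314 and 21334876 in siDGUOK replicates 1, 2 and 3.

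Cells make uridine monophosphate from glutamine, bicarbonate and aspartate along the de novo route, and turn it into cytidine nucleotides and, after reduction of the ribose, into thymidylate. Salvage enzymes return free nucleosides to the nucleotide pool or deaminate cytidine to uridine. The liver is known both for making uridine and for breaking it down.

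The targeted gene served as a check of the labels. DGUOK (chromosome 2, 73926826 to 73958961 on GRCh38) stood at 54.4, 53.1 and 48.2 CPM (counts scaled to a common library size with TMM factors) in siControl replicates 1, 2 and 3, and at 9.08, 10.5 and 6.72 CPM in the siDGUOK replicates. Every siDGUOK library lay below every siControl library. The log2 fold change was −2.57 (SE 0.19, adjusted p = 1.64e-08, edgeR quasi-likelihood test with Benjamini-Hochberg adjustment over all genes tested).

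A gene counted as called when its adjusted p was below 0.05 and its log2 fold change lay more than 0.5 from 0. Of the 10 enzyme genes, 1 was called. That gene was CDA, which was higher in siDGUOK, and 0 were called lower. Over all genes tested, 14.1% were called by this rule, 7.42% higher and 6.68% lower. The libraries of the groups did not overlap for 4 of the 10 genes, 2 higher (CTPS1 and CDA) and 2 lower (TYMS and DCTD), against 36% of all genes tested. Both shares were close to the background. The median log2 fold change of the 10 was −0.0029, against 0.017 for all genes tested, and 5 were positive and 5 negative. Their median within-group SD was 0.19 on the log2 CPM scale, against 0.25 for all genes tested.

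**Figure D1:**
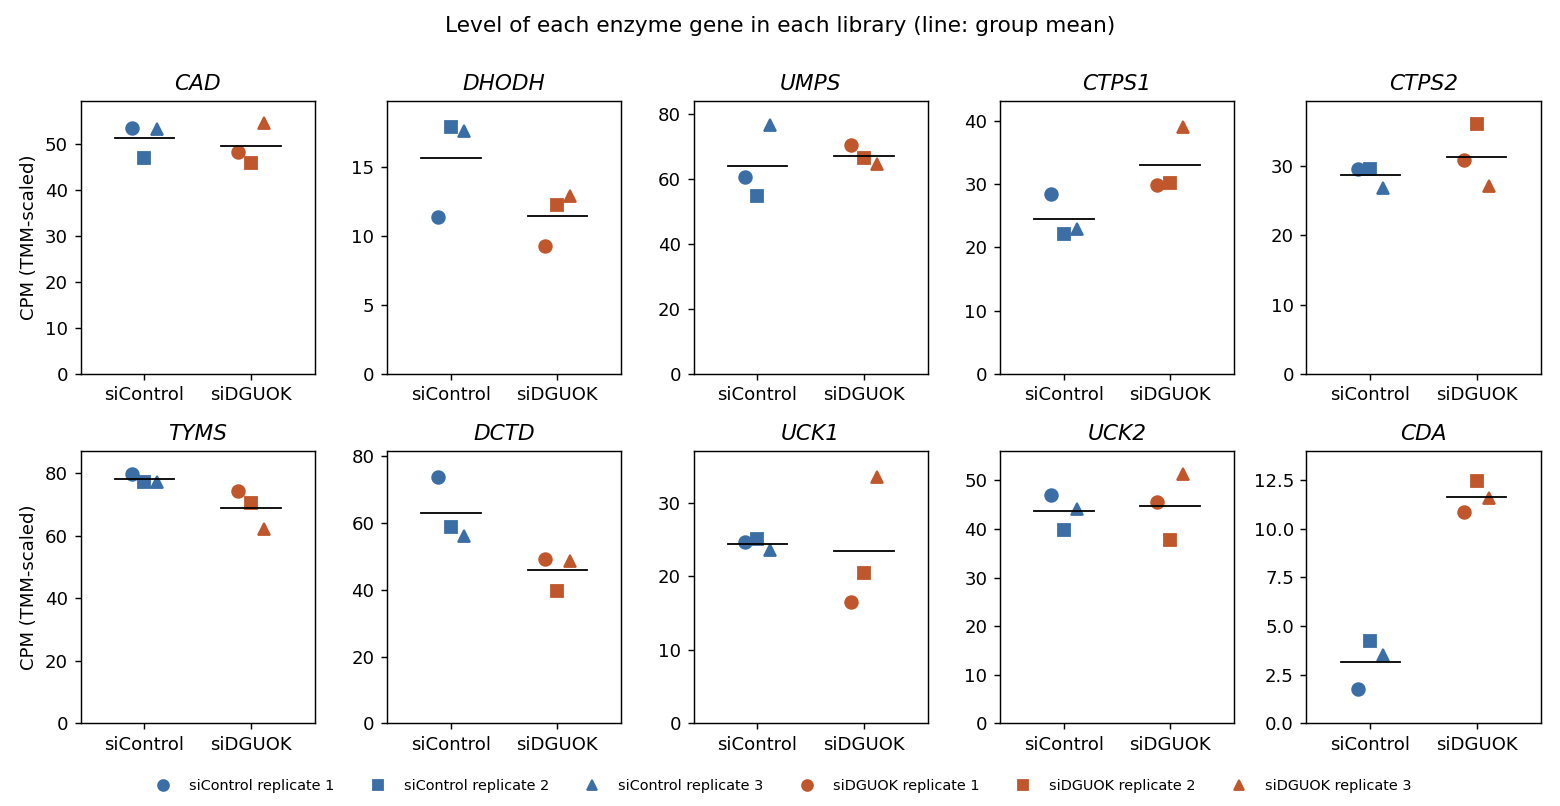
Level of each of the 10 enzyme genes in CPM (vertical axes, each from 0) in the 3 siControl and 3 siDGUOK libraries. Symbols mark replicate numbers and lines mark group means. The highest siControl value of CDA is 4.21 CPM and its lowest siDGUOK value 10.9 CPM, whereas the groups overlap for CAD, DHODH, UMPS, CTPS2, UCK1 and UCK2.

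The first 3 genes carry the de novo route to uridine monophosphate. CAD (chromosome 2, 27217369 to 27243943) encodes the multifunctional protein that starts the route. Its level was 53.4, 47.0 and 53.2 CPM in the siControl replicates and 48.3, 45.9 and 54.5 CPM in the siDGUOK replicates. The ranges overlapped almost entirely. For CAD the log2 fold change was −0.045, with a 95% interval from −0.32 to 0.23 (adjusted p = 0.876, edgeR). UMPS (chromosome 3, 124730433 to 124749273), whose protein completes uridine monophosphate, stood at 60.7, 54.9 and 76.6 CPM in siControl and at 70.3, 66.3 and 64.5 CPM in siDGUOK. All siDGUOK values lay inside the siControl range, whose top was replicate 3. Its log2 fold change was 0.070, with a 95% interval from −0.20 to 0.35 (adjusted p = 0.787, edgeR).

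DHODH (chromosome 16, 72008588 to 72027664) encodes the dihydroorotate dehydrogenase of the inner mitochondrial membrane, which passes electrons to ubiquinone. It stood at 11.4, 17.8 and 17.5 CPM in the siControl replicates and at 9.24, 12.2 and 12.9 CPM in the siDGUOK replicates. The siDGUOK libraries were below siControl replicates 2 and 3, but siControl replicate 1 fell among them. Its log2 fold change was −0.44 with a 95% interval from −0.98 to 0.091 (adjusted p = 0.262, edgeR), an interval that holds 0 and also values past −0.5. With 171 to 335 counts per library, this was the least deeply counted of the 10 genes after CDA.

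The CTP synthases aminate UTP to CTP. CTPS1 (chromosome 1, 40979300 to 41012565) stood at 28.5, 22.1 and 22.9 CPM in siControl and at 29.8, 30.2 and 39.1 CPM in siDGUOK. The groups did not overlap, although siControl replicate 1 and siDGUOK replicate 1 were close and siDGUOK replicate 3 was the highest. The log2 fold change of 0.43 (95% interval 0.055 to 0.81) did not pass after adjustment (adjusted p = 0.106, edgeR). Without siDGUOK replicate 3 the value was 0.28. CTPS2 (chromosome X, 16587999 to 16712936) was at 29.6, 29.6 and 26.8 CPM in siControl and at 30.9, 36.0 and 27.1 CPM in siDGUOK. The siDGUOK value of replicate 3 lay within the siControl range. For CTPS2 the log2 fold change was 0.12 (95% interval −0.23 to 0.48, adjusted p = 0.692, edgeR), and it ran from 0.015 without siDGUOK replicate 2 to 0.21 without siDGUOK replicate 3.

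The count ratio of CTPS1 to CTPS2 within a library does not depend on library scaling. It was 0.964, 0.746 and 0.854 in the siControl replicates and 0.967, 0.839 and 1.44 in the siDGUOK replicates. Apart from siDGUOK replicate 3 the groups ran together. The mean log2 ratio was higher by 0.31 in siDGUOK (two-sided exact permutation test, p = 0.4, where 3 against 3 libraries cannot give less than 0.1). Without siDGUOK replicate 3 the difference was 0.083.

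DCTD and TYMS lead to thymidylate. DCTD (chromosome 4, 182890060 to 182917936) encodes the deaminase that turns dCMP into dUMP. It stood at 73.9, 58.9 and 56.1 CPM in the siControl replicates and at 49.3, 39.8 and 48.5 CPM in the siDGUOK replicates. Each siDGUOK library lay below each siControl library, and siControl replicate 1 stood above the rest. The group means were 62.9 ± 9.58 and 45.9 ± 5.29 CPM (SD, n = 3). Its log2 fold change of −0.46 (SE 0.14, 95% interval −0.75 to −0.16) passed the adjusted p (0.0272, edgeR) but not the fold threshold of 0.5, so DCTD was not called. It sat close to both limits. DCTD was called without siControl replicate 2 (−0.51), siControl replicate 3 (−0.53), siDGUOK replicate 1 (−0.53) or siDGUOK replicate 3 (−0.51). Without siControl replicate 1 its log2 fold change was −0.32 and without siDGUOK replicate 2 it was −0.36, with adjusted p of 0.186 and 0.120 (edgeR).

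TYMS (chromosome 18, 657653 to 673578) encodes thymidylate synthase, which methylates dUMP. Its level was 79.9, 77.1 and 77.2 CPM in siControl and 74.3, 70.7 and 62.1 CPM in siDGUOK. The groups did not overlap, and siDGUOK replicate 3 was the lowest library. The log2 fold change of TYMS was −0.18 (95% interval −0.41 to 0.057, adjusted p = 0.314, edgeR), and it ran from −0.25 without siDGUOK replicate 1 to −0.12 without siDGUOK replicate 3. In the annotation used here, 967 exonic bases of TYMS, 39.9% of the total, overlap exons of ENOSF1 on the other strand, and 193 overlap those of TYMSOS. Counting that ignores strand leaves out reads in such a stretch, so the level of TYMS is uncertain. The study's methods name an earlier Gencode release, so the stretches left out may differ from these.

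Genes of DNA replication are given beside these, since thymidylate is used in S phase. Of 20 such genes, 0 were called in edgeR's test and 0 in DESeq2, against 14.1% of all genes tested, and 2 had an unadjusted p below 0.05 (edgeR), against 30.6% of all genes tested. The list had a median log2 fold change of −0.13. The libraries did not overlap for 4 of 20, with 0 higher and 4 lower in siDGUOK. Over all 14476 genes tested, 36% did not overlap in either direction, 2702 genes higher and 2506 lower. MCM3, a subunit of the replicative helicase, passed the adjusted p alone (log2 fold change −0.39, adjusted p = 0.00379, edgeR). It was named after its value was seen.

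Salvage of ribonucleosides starts with the uridine-cytidine kinases. UCK1 (chromosome 9, 131523801 to 131531264) stood at 24.7, 25.0 and 23.5 CPM in siControl and at 16.5, 20.4 and 33.5 CPM in siDGUOK. Replicates 1 and 2 of siDGUOK lay below all siControl libraries and replicate 3 lay above them. The SD was 0.780 CPM in siControl and 8.88 CPM in siDGUOK. The log2 fold change was −0.054 with a 95% interval from −0.53 to 0.42 (adjusted p = 0.914, edgeR). Its sign turned without siDGUOK replicate 1 (0.13) and without siDGUOK replicate 2 (0.038), and without siDGUOK replicate 3 the value was −0.41. UCK2 (chromosome 1, 165827614 to 165911618) was at 47.1, 39.9 and 44.0 CPM in siControl and at 45.4, 37.7 and 51.3 CPM in siDGUOK. The siDGUOK range enclosed that of siControl. Its log2 fold change was 0.039 (95% interval −0.27 to 0.35, adjusted p = 0.906, edgeR). On the other strand, exons of UCK2 share 413 bases with a long noncoding RNA that had 0 counts and 142 with TMCO1, and those of UCK1 share 6 with POMT1.

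The count ratio of UCK1 to UCK2 was 0.524, 0.628 and 0.535 in siControl and 0.364, 0.542 and 0.654 in siDGUOK. The siDGUOK libraries spread to both sides of siControl. The mean log2 ratio differed by −0.15 (two-sided exact permutation test, p = 0.9, smallest possible 0.1), and by 0.087 without siDGUOK replicate 1.

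**Figure D2:**
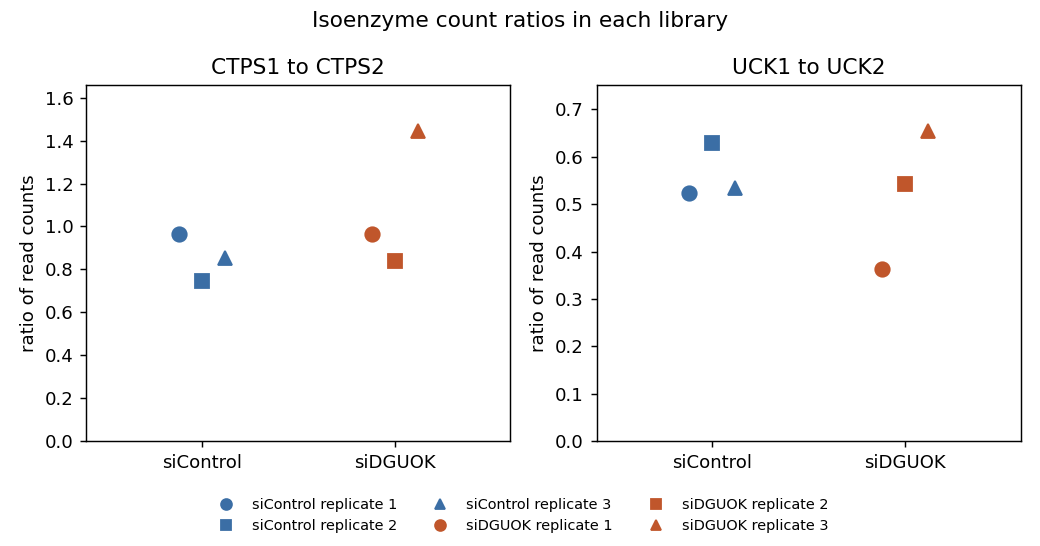
Ratio of read counts of CTPS1 to CTPS2 (left) and of UCK1 to UCK2 (right) in each siControl and siDGUOK library, with vertical axes from 0. The highest CTPS1 to CTPS2 ratio, 1.44, belongs to siDGUOK replicate 3, and the UCK1 to UCK2 ratio of siDGUOK ranges from 0.364 to 0.654.

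CDA, the last of the salvage genes (chromosome 1, 20589086 to 20618903), encodes cytidine deaminase, which turns cytidine and deoxycytidine into uridine and deoxyuridine. It had 33, 79 and 37 counts in the siControl replicates and 201, 202 and 251 counts in the siDGUOK replicates. Scaled to CPM these were 1.76, 4.21 and 3.53 against 10.9, 12.4 and 11.5. The siDGUOK libraries were close to each other and all lay above siControl, in which replicate 1 was lowest. CDA rose from 3.17 ± 1.26 to 11.6 ± 0.789 CPM (SD, n = 3). The log2 fold change was 1.88 (SE 0.37, 95% interval 1.11 to 2.65, adjusted p = 0.00103, edgeR). In absolute size it ranked at percentile 95.4 of the genes tested. The call held in each alternative that was run, with log2 fold changes from 1.20 under DESeq2's shrinkage to 2.17 without siControl replicate 2, and adjusted p from 1.64e-05 to 0.00709.

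Markers of cell identity were read as well. Of 8 hepatocyte markers, 7 were called lower in siDGUOK (ALB, AFP, APOA1, APOB, TTR, HNF4A and TF), against 6.68% of all genes tested, and 1, SERPINA1, was not called (log2 fold change 0.019). That of ALB was −1.58. HNF4A (−0.51) was under the fold threshold without siControl replicate 1 or siDGUOK replicate 3 (−0.465 and −0.474). The summed level of the 8 was 51460, 45890 and 44910 CPM in the siControl replicates and 27020, 23550 and 22230 CPM in the siDGUOK replicates, and none was at 0 in any library. Of 10 markers of immune, stromal and endothelial cells, 9 were tested, 1 was called higher (COL1A1, log2 fold change 4.04) and 1 lower (PDGFRB, −1.02), against 14.1% of all genes tested called in either direction. COL1A1 had 9, 37 and 11 counts in siControl and 374, 336 and 379 in siDGUOK. It passed the count filter only with its siDGUOK libraries, the group in which it was higher. PDGFRB lost its adjusted p without siControl replicate 1 (−1.02), siControl replicate 2 (−0.88), siControl replicate 3 (−1.12), siDGUOK replicate 1 (−1.13) or siDGUOK replicate 3 (−0.81), where it lay from 0.0551 to 0.125 (edgeR). LYZ made up most of the sum of these 10, which was 1625, 1716 and 1715 CPM in siControl and 1938, 1826 and 1794 CPM in siDGUOK. Without LYZ the sum was 15.6, 20.4 and 14.6 CPM in siControl and 42.3, 80.1 and 30.2 CPM in siDGUOK. COL3A1 had 0, 1 and 0 counts in siControl and 148, 254 and 9 in siDGUOK. With no count filter CDH5, COL3A1 and PECAM1 were also called higher. COL3A1 was called higher too in DESeq2 before shrinkage, and without siControl replicate 1, siControl replicate 3 or siDGUOK replicate 3. PECAM1 was called higher with mitochondrial genes left out or without siDGUOK replicate 1, and CDH5 without siControl replicate 3. PTPRC was called higher with the replicate number as a block or without siControl replicate 2. The part of these shifts in the CDA result was not tested. In bulk RNA, fewer cells of a type and less RNA per cell cannot be told apart.

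**Figure D3:**
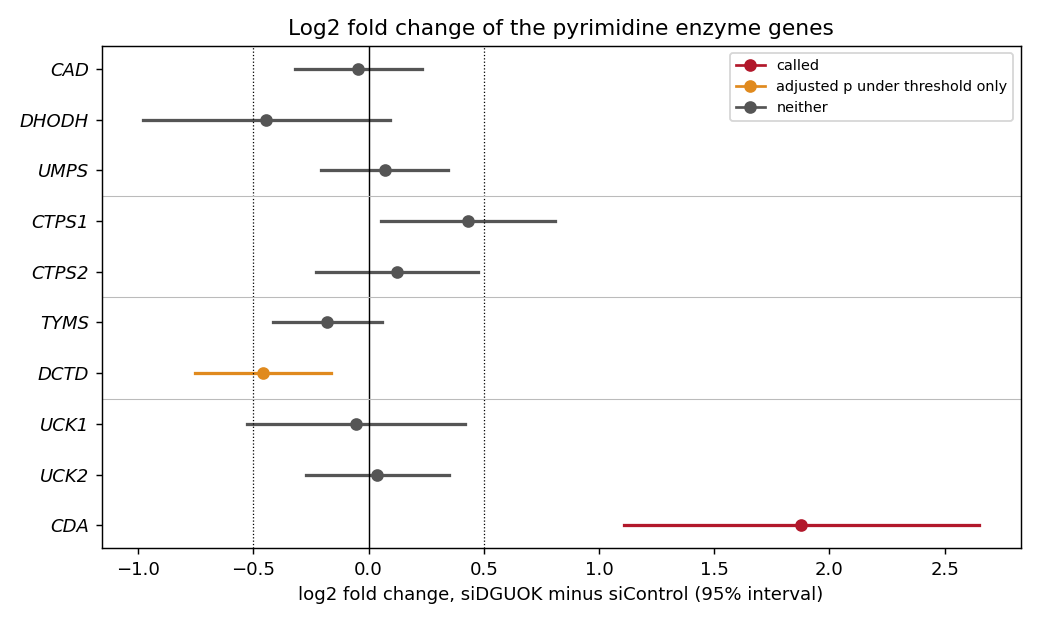
Log2 fold change of the 10 enzyme genes, siDGUOK minus siControl (horizontal axis), with 95% intervals from edgeR's fit and dotted lines at the fold threshold of 0.5 in each direction. The interval of CDA lies wholly above 0.5, that of DCTD lies below 0 and crosses −0.5, and 7 of the 10 intervals hold 0.

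For 5 genes, CAD, UMPS, CTPS2, TYMS and UCK2, the whole 95% interval lay within 0.5 in both directions, so these data limit a difference to less than the fold threshold at that confidence. The intervals of DHODH, CTPS1, DCTD and UCK1 reached past it. Read library by library, siDGUOK replicate 1 lay above all siControl libraries for 3 of the 10 genes and below all of them for 4, against 31.9% and 29.2% of all genes tested. For replicate 2 these counts were 3 and 5 (35.3% and 32.2% of all genes tested), and for replicate 3 they were 5 and 2 (34.6% and 33.2%). CTPS1 and CDA were above, and TYMS and DCTD below, in all 3.

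Levels can be compared between genes only per length, here as CPM per kb of the canonical transcript. In siControl TYMS was highest at 48.4 ± 0.985, followed by DCTD at 32.6 ± 4.97 (SD, n = 3), and the libraries of these 2 genes overlapped neither each other nor the next gene. UCK1 (11.3), UMPS (9.63), UCK2 (9.09) and CTPS1 (8.63) came next, and each overlapped its neighbour. CTPS2 (7.25) and CAD (7.02) overlapped each other but not CTPS1 or CDA. CDA (3.91) and DHODH (3.34) were lowest and overlapped. In siDGUOK TYMS (42.8) and DCTD (23.8) kept the first 2 places. CDA came next at 14.4 ± 0.975 CPM per kb, overlapping CTPS1 (11.6), and DHODH (2.45) was last and apart from CAD (6.80). The order depends on the transcript taken as length. Over all annotated exons CTPS1 was lowest in siControl, at 2.05 CPM per kb.

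**Figure D4:**
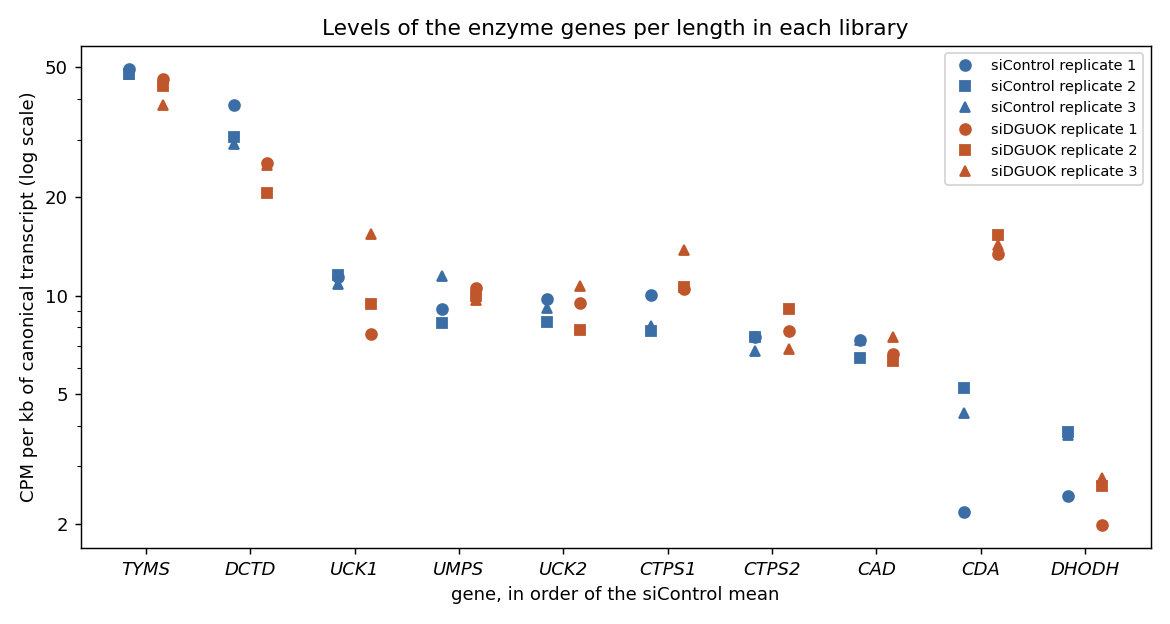
Level of each enzyme gene per kb of canonical transcript in each library, on a log scale, in order of the siControl mean. TYMS and DCTD are highest in both groups, and CDA moves from place 9 in siControl (3.91) to place 3 in siDGUOK (14.4).

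The promoters of the 10 genes were searched for the E-box CACGTG, a sequence bound by MYC, and for the E2F motifs TTTCGCGC, TTTGGCGC and TTTCCCGC, on both strands from 250 bases before to 50 after the RefSeq gene start. All 10 matched the RefSeq table of promoters (GRCh38.p14). DHODH held CACGTG, which 7.26% of the 35116 promoters of this length hold. CDA and TYMS held TTTCCCGC on one strand or the other, found in 1.63% of promoters, and 2.74% hold any of the 3 E2F motifs. The promoters of CDA and TYMS are shown from 250 bases before to 10 after the RefSeq start because they hold the rarer match, given in capitals, and a match is a description only. They lie on the plus strand at chr1:20588847-20589106 and chr18:657403-657662. RefSeq and Gencode place the start of TYMS at the same base, whereas the RefSeq start lies 11 bases further in for CDA and 156 for DHODH.
CDA: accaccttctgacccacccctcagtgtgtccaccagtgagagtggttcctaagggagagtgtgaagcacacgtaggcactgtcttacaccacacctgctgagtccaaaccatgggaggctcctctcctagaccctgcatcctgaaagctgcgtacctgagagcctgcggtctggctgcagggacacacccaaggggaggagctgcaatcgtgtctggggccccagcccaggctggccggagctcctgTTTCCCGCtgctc
TYMS: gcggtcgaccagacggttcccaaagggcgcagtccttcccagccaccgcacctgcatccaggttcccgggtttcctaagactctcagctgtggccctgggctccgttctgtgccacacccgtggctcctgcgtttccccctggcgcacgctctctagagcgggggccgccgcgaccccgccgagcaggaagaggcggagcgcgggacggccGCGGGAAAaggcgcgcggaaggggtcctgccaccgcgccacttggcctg
MYC and E2F1 themselves were not called, with log2 fold changes of 0.023 (95% interval −0.16 to 0.20) and 0.060 (−0.34 to 0.46), and the sign of both turned when single libraries were left out.

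The other genes of pyrimidine metabolism numbered 40, of which 35 were tested. Of these, 3 were called higher and 2 lower, against 14.1% of all genes tested called in either direction. The libraries did not overlap for 14 of 35, against 36%. Both shares were near the background, so the genes below are given as single genes. Their median log2 fold change was 0.062, also with UPB1 placed at its bound.

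Of 9 nucleotide kinases 8 were tested. Of these, 2 were called higher (NME2 and NME6) and 1 lower (NME4), against 7.42% and 6.68% of all genes tested. Calls in the other roles were 0 of 4 nucleoside kinases, 1 of 2 pyrophosphatases and 0 of 3 ribonucleotide reductase subunits. They were 0 of 3 folate cycle genes, 1 of 4 phosphorylase and breakdown genes, 0 of 5 nucleotidases and 0 of 6 carriers. With so few genes per role, these counts are a description only. NME3 had the largest log2 fold change of the 8 nucleotide kinases in size, 0.89, but was not called (adjusted p = 0.0514, edgeR). Without siDGUOK replicate 2 it was 0.47, and without siDGUOK replicate 3 it was 1.18 and called, as it was with no count filter (0.90, adjusted p = 0.00855, edgeR). NME7 stood at −0.042. NME2, a nucleoside diphosphate kinase, stood at 36.4, 34.5 and 43.9 CPM in siControl and 52.2, 54.8 and 76.7 CPM in siDGUOK. It was higher in every siDGUOK library and rose by a log2 fold change of 0.68 (adjusted p = 0.00448, edgeR). NME6 rose by 0.68 (adjusted p = 0.0309, edgeR), from 16.2 ± 3.97 to 26.0 ± 3.92 CPM (SD, n = 3). NME4, a mitochondrial member, went the other way, at 161, 172 and 175 CPM in siControl and 116, 120 and 118 CPM in siDGUOK. The replicates were tight, and its log2 fold change was −0.52 (SE 0.086, adjusted p = 0.000218, edgeR). NME1 and NME2 are related in sequence, and reads that fit both are left out, so their counts are uncertain.

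DCTPP1, a pyrophosphatase of dCTP and modified dCTP, stood at 76.7, 79.4 and 88.0 CPM in siControl and 102, 110 and 135 CPM in siDGUOK. Its log2 fold change of 0.51 (adjusted p = 0.00342, edgeR) was just past the threshold. UPB1, which acts at the end of uracil breakdown, had 18, 36 and 6 counts in siControl and 0 in each siDGUOK library. Against a floor of 3 counts per library this was at least 7.12-fold lower (adjusted p = 0.0274, edgeR). UPB1 passed the count filter through siControl alone, the group in which it was higher, so its call is a description only. NME4 slipped just under the fold threshold without siControl replicate 3 (−0.50, adjusted p = 0.00397, edgeR), and NME2 without siDGUOK replicate 3 (0.48). DCTPP1 was under it without siControl replicate 1 (0.47), siControl replicate 2 (0.49) or siDGUOK replicate 3 (0.38), and with DESeq2's shrunken fold changes (0.48). NME6 lost its adjusted p in 4 of the 6 fits that left out a library, with fold changes of 0.55 to 0.67. UPB1 was not called in any of the 6, with the replicate number as a block (adjusted p = 0.0816, edgeR) or with DESeq2's shrunken fold changes. Of the list, 3 more genes passed the adjusted p alone, NME1 (0.41, adjusted p = 0.0101, edgeR) and SHMT2 (0.24, adjusted p = 0.0411, edgeR) higher and NT5E, a nucleotidase, lower (−0.46, adjusted p = 0.0147, edgeR). NME1 lost it without siControl replicate 3 (0.37), and SHMT2 in 5 of the 6 fits that left out a library, all but the fit without siDGUOK replicate 2 (0.28). SHMT2 also lost it with RLE factors (0.23), mitochondrial genes left out (0.23), no count filter (0.25) or totals over the tested genes (0.23). In these its adjusted p ran from 0.0501 to 0.0646 (edgeR). NT5E lost it without siControl replicate 1 (−0.36) or siDGUOK replicate 2 (−0.37), and was called without siControl replicate 3 (−0.51), siDGUOK replicate 1 (−0.51) or siDGUOK replicate 3 (−0.52).

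Several genes were not counted deeply enough to test. CMPK2, a mitochondrial nucleotide kinase, had 0 counts in each siControl library and 18, 6 and 0 in siDGUOK. SLC28A2 and SLC28A3, concentrative nucleoside transporters, had 0 counts in all 6 libraries. By role, the highest levels per kb in siControl were those of UCKL1 among nucleoside kinases (38.0), NME4 among nucleotide kinases (169) and DCTPP1 among pyrophosphatases (68.9). The libraries of RRM2B (11.9) and RRM1 (11.7), subunits of ribonucleotide reductase, overlapped. SHMT2 led the folate cycle of thymidylate (120), NT5C3B the nucleotidases (64.8) and SLC29A1 the carriers (30.2). Among the phosphorylases UPP1 (9.87) had the highest mean, but its libraries overlapped those of TYMP (6.52).

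**Figure D5:**
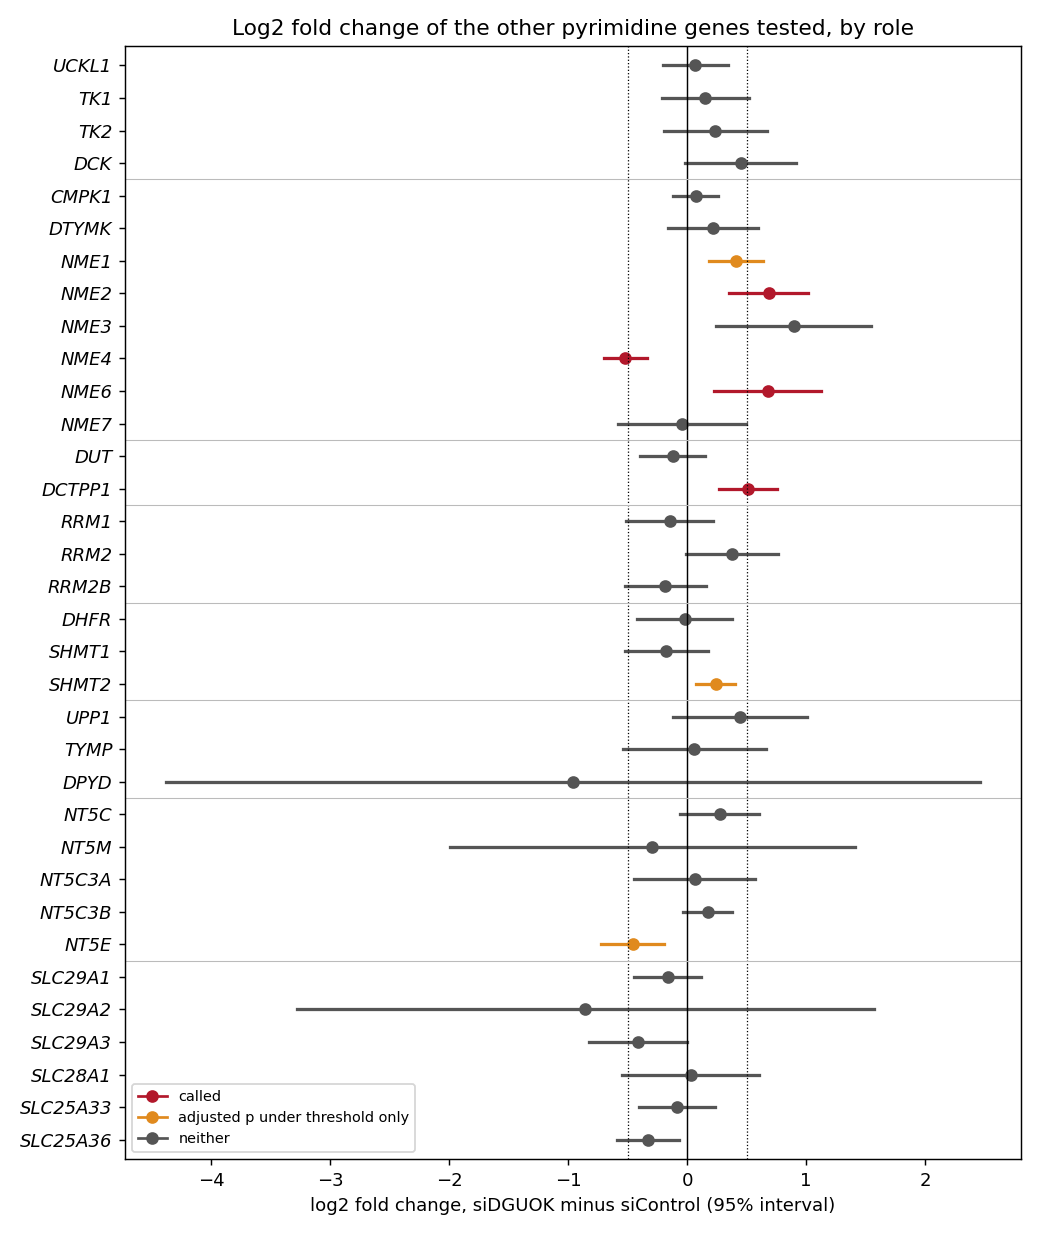
Log2 fold change of 34 of the 35 other pyrimidine genes tested, siDGUOK minus siControl, with 95% intervals, grouped by role, and dotted lines at the fold threshold. UPB1 is not drawn because it had 0 counts in siDGUOK. NME2, NME6 and DCTPP1 are called higher and NME4 lower.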

How the data were processed

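Bulk RNA-seq of HepG2 cells was analysed from the gene table the authors deposited, which holds raw read counts per gene for 3 siControl and 3 siDGUOK libraries. Per the submitters' processing notes and the study's methods, STAR 2.6.1 placed reads on GRCh38 after those of structural RNAs, adapters and spike-ins had been discarded, low-complexity alignments were filtered, and featureCounts 1.6.5 assigned reads to genes with its default settings and a Phred quality minimum of 10. Such settings take no account of strand, and reads that fit several places or genes are not counted. Counts of overlapping, antisense or near-identical genes are therefore uncertain. The labels list the molecule as poly(A) RNA, but the protocol names poly(A) selection and rRNA depletion without choosing between them.

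Counts were filtered with filterByExpr (minimum count 10) and scaled by TMM in edgeR 4.0.16 under R 4.3.3. The robust quasi-likelihood test compared the groups with condition alone. A call needed a Benjamini-Hochberg adjusted p below 0.05 over all genes tested and a log2 fold change more than 0.5 from 0. The SE was obtained by dividing the absolute log2 fold change by the root of F. Positions, lengths and overlaps came from Gencode 44 on GRCh38. The study's methods name an earlier Gencode release, so overlaps at counting may have differed. Library sizes were totals over all genes listed, a choice made after totals over the tested genes had also been run, and the latter are given as an alternative. Each pair of replicates of a group differed beyond sampling noise (chi-square over its degrees of freedom, 9.67 to 20.8). Total counts from 10527216 to 21334876 limit the precision, and intervals cover the spread among these libraries only.

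The 10 genes, the lists of other pyrimidine genes, DNA replication genes, hepatocyte markers and markers of other cells, and the motifs were chosen with earlier results of these data known. Named were the 10 genes, DGUOK, MYC and E2F1, the called genes among the other pyrimidine genes and the DNA replication genes, and the other pyrimidine gene at the highest level in each role. Genes named beyond this (MCM3, NME1, NME3, NME7, NT5E, TYMP, CMPK2, RRM1, SLC28A2, SLC28A3 and the markers singled out) were picked once their values had been seen. The alternatives tried were DESeq2 1.42.0, its shrunken fold changes, RLE factors, mitochondrial genes left out, no count filter, no fold threshold, the replicate number as a block, and each library left out in turn. The scripts were tested on simulated counts with known changes.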

Additional observations from a re-analysis of the deposited data

How the results depend on the processing

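Over the alternatives for CDA, DCTD, DGUOK and the other 8 enzyme genes, 133 of 143 values kept their direction and their call, 4 became calls (all DCTD) and 6 reversed. Among those that kept the call, DHODH passed the fold threshold but not the adjusted p without siControl replicate 1 (−0.63) or siDGUOK replicate 3 (−0.55), as did CTPS1 without siControl replicate 1 (0.56), and DCTD lost its adjusted p in 2 fits. The reversals were all in genes near 0, for which the cause was not tested: CAD at 0.0089 without siDGUOK replicate 2, UMPS at −0.030 without siControl replicate 2, UCK1 at 0.13 and 0.038 without siDGUOK replicates 1 and 2, and UCK2 at −0.024 and −0.077 without siControl replicate 2 and siDGUOK replicate 3. When each library was left out in turn, the ranges were −0.13 to 0.0089 for CAD, −0.030 to 0.22 for UMPS, −0.41 to 0.13 for UCK1 and −0.077 to 0.15 for UCK2. After the data were seen, the same alternatives were run for DGUOK, the other genes given with fold changes, and the calls among markers. NME7 reversed without siControl replicate 1 (0.043), siControl replicate 3 (0.010) or siDGUOK replicate 3 (0.068), with a range of −0.18 to 0.068. MYC reversed without siControl replicate 3 (−1.1e-05), siDGUOK replicate 1 (−0.017) or siDGUOK replicate 2 (−0.018), with a range of −0.018 to 0.080. E2F1 reversed without siDGUOK replicate 1 (−0.011) or siDGUOK replicate 2 (−0.018), with a range of −0.018 to 0.18. SERPINA1 reversed without siControl replicate 3 (−0.013) or siDGUOK replicate 1 (−0.056), with a range of −0.056 to 0.062. The cause was not tested. The number of the 10 enzyme genes called was 2 (CDA and DCTD) with no fold threshold, and from 1 to 2 when each library was left out. The called other pyrimidine genes numbered 8 with no fold threshold, 6 with no count filter (NME3 gained), 3 with DESeq2's shrunken fold changes (without DCTPP1 and UPB1) and from 2 to 5 when each library was left out. NT5E was gained in 3 of these fits and NME3 in 1. DNA replication genes called were 1 with no fold threshold. Hepatocyte markers called were 6 or 7 when each library was left out. Called markers of other cells numbered 5 with no count filter and from 2 to 3 in the other alternatives, with COL1A1 in each (2.51 to 4.76). The difference in log2 ratio of UCK1 to UCK2 ran from −0.34 to 0.087, and that of CTPS1 to CTPS2 from 0.083 to 0.47, when each library was left out. Totals over the tested genes, added after seeing the data (the main setting was chosen with both seen), gave 2032 calls, 1033 higher and 999 lower, against 2041, 1074 and 967, and the same numbers among the enzyme, other pyrimidine, DNA replication and both sets of marker genes. Calls over all genes were 2847 with no fold threshold.

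Replicate numbers gave no pairing, since the correlations across genes of same-numbered deviations from the group means were 0.024, 0.017 and −0.0022. With the replicate number as a block, 2077 genes were called, 1 of the 10 enzyme genes, 4 of the other pyrimidine genes and 0 of the DNA replication genes, and CDA had a log2 fold change of 1.95.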
